A study of Mus musculus with 2 samples.

Results

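The immediate early transcription factors of the AP-1, Egr and Nr4a families were examined in the cultured mouse ovary: the AP-1 subunits Fos, Fosb, Fosl2, Jun, Junb and Jund, the zinc finger factors Egr1 and Egr2, the nuclear receptor Nr4a1, and the small nuclear protein Ier2. These 10 genes were listed by family, with earlier results of these arrays known, and every probe for them was found through the RefSeq transcript accession that the array files give. They account for 11 probes and 20 spots, of the 20658 genes that could be named in this way and the 59305 spots on the array that are not controls. Ovaries of 2-week-old mice were cut and the portions cultured for 3 days with ligands of the tachykinin receptors (TKRs), the receptors of substance P and its relatives. The TKR agonist group received [Sar9, Met(O2)11]-SP for TACR1, GR-64349 for TACR2 and a succinylated, N-methylated fragment analogue of SP for TACR3, and the TKR antagonist group received a selective TACR1 antagonist with GR-94800 for TACR2 and SB218795 for TACR3, each ligand at 1 μM per the study's methods. The comparison asks how the ovary differs between stimulated and blocked TKRs, and 1 single-colour array was hybridised for each group. Untreated ovaries were not analysed here, so a difference cannot be assigned to the agonists or to the antagonists. The mouse strain of these ovaries and the number of ovaries behind each RNA are not given in the sources used here.

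Immediate early genes are transcribed within minutes of a stimulus without the need for new protein, and their transcripts are usually short-lived. Fos and Jun proteins pair through leucine zippers to form AP-1, which binds DNA at TPA response elements. Egr proteins bind GC-rich elements, and Nr4a1 (Nur77) binds as an orphan nuclear receptor whose activity follows its level. TKRs couple to calcium release and to the MAP kinase pathway, which drives these genes through serum response factor with its Elk partners and through CREB. In the ovary, gonadotropins are well known to induce several of them in granulosa cells. A sample taken after 3 days of culture with ligand shows the level at the end of the culture and not a first response.

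The stretches just upstream of the transcription starts are shown because they carry the letters read by the factors named above. RefSeq start sites of assembly GRCm38.p6 gave windows of 250 bases before and 50 bases after the start for 8 of the 10 genes. No window was found in the table for Egr1 and Ier2. Capitals mark, on either strand, the TGACG core of the cAMP response element, the Egr element GCGGGGGCG, the AP-1-like element TGACATCA, and the CArG box of serum response factor. The first 5 stretches are the 120 bases that precede the start and the Egr2 stretch is 30 bases around its CArG box.
Fos, chr12:85473770-85473889, plus strand: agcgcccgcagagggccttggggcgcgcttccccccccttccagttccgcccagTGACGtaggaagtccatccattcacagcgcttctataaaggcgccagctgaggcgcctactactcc
Fosb, chr7:19310046-19310165, minus strand: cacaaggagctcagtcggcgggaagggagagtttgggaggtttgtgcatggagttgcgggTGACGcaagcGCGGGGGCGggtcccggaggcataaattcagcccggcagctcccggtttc
Jun, chr4:95052223-95052342, minus strand: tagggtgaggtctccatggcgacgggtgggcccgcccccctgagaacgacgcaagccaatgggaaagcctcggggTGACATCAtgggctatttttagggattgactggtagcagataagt
Junb, chr8:84978749-84978868, minus strand: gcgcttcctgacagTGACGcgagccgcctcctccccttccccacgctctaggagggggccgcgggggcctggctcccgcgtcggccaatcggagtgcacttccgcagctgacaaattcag
Nr4a1, chr15:101266726-101266845, plus strand: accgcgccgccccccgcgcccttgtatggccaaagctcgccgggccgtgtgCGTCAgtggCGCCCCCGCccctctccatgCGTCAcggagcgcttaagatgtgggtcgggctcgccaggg
Egr2, chr10:67537793-67537822, plus strand: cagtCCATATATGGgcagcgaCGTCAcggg

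TGACG, or its reverse complement, lay in a window of 5 of the 8 genes (Egr2, Fos, Fosb, Junb and Nr4a1), against 20.8% of all 32851 windows of the same length in the table. In Fos it stood from position -66 to -62 before the start and, outside the stretch shown, from -129 to -125. In Junb it stood from -106 to -102. The full palindrome TGACGTCA, which contains TGACG, was in none of the windows of these genes and in 1.79% of all windows. The Egr element was in a window of 3 genes (Fosb, Fosl2 and Nr4a1), against 2.91% of all windows. The CArG box was in the windows of Egr2 alone (1.63% of all windows) and TGACATCA in that of Jun alone (3.62%). Windows of these genes held no TGANTCA (7.81% of all windows), no STAT element TTCNNNGAA (8.3%) and no NBRE AAAGGTCA (1.51%). These are counts of letters in fixed windows. Bases outside them, and Egr1 and Ier2, were not searched, so an absent match does not mean that a gene lacks the element. Some genes have several windows, and a match is not a measured binding site.

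The signal of a probe is its brightness on a linear scale after the scanner software's background correction, and each array's signals were divided by the 75th percentile of that array before the arrays were compared. The agonist array had a 75th percentile of 672 signal units and the antagonist array one of 569. A log2 ratio below is the scaled agonist value minus the scaled antagonist value, so that 1 stands for a 2-fold higher value with the agonists. A probe is called detected on an array where the software marked more than 50% of its spots as well above background. The 33073 probes detected on both arrays had a median log2 ratio of -0.10, the middle 50% of probes lay between -0.27 and 0.12 and the central 95% between -0.73 and 1.03. Without scaling that median would be 0.14, so the values of the 10 genes are read against the median of all probes. Both arrays lay on the same slide and were scanned together. Each group has 1 array and hence no replicate, the number of arrays limits the precision, and no test was made. The ± given for a single-spot signal is the software's own error estimate, and that of a log2 ratio combines the estimates of both arrays. It covers the measurement of a spot and not the spread between ovaries. For bright probes the estimate was close to a constant share of the signal, and the error of the log2 ratio was near 0.20 for each. For them a distance in errors follows the size of the ratio. The software's estimate is thus no measured spread between spots. For a probe with repeated spots it remains the error of 1 spot and was not reduced for their number. Over 284 probes with 10 spots, the median SD of the log2 ratio between spots was 0.07. The median software error of all probes detected on both arrays was 0.21. RNA of the whole tissue was measured, so fewer cells of a type and less RNA per cell cannot be told apart.

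All 10 genes were detected on both arrays. Their median log2 ratio was -0.10, beside a median of all probes of -0.10. The ratios ranged from -0.52 to 0.81, with an SD of 0.41 between genes. With 10 genes the median depends on single members. It lay between the ratios of Fos (0.05) and Fosl2 (-0.25), and was -0.25 without Junb. Exactly 5 genes lay above the median of all probes and 5 below it. Of the 10 genes, 0 reached a 2-fold higher value with the agonists and 0 a 2-fold lower one, against 2.69% and 0.705% of all probes. At 1.5-fold, 1 gene (Junb) was higher and 0 were lower, against 6.95% and 4.9% of all probes. The distance from the median of all probes was over 1 software error in 5 of the 10 genes, against 43.4% of all probes, and over 2 errors in 2 genes (Junb and Egr1), against 17.5%. In order from highest to lowest ratio the genes were Junb, Egr2, Jun, Nr4a1, Fos, Fosl2, Jund, Fosb, Ier2 and Egr1. Of the 9 pairs of neighbours in this order, 2 differed by over 1 error of their difference (Junb with Egr2, and Fos with Fosl2) and 0 by over 2 errors.

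**Figure D1:**
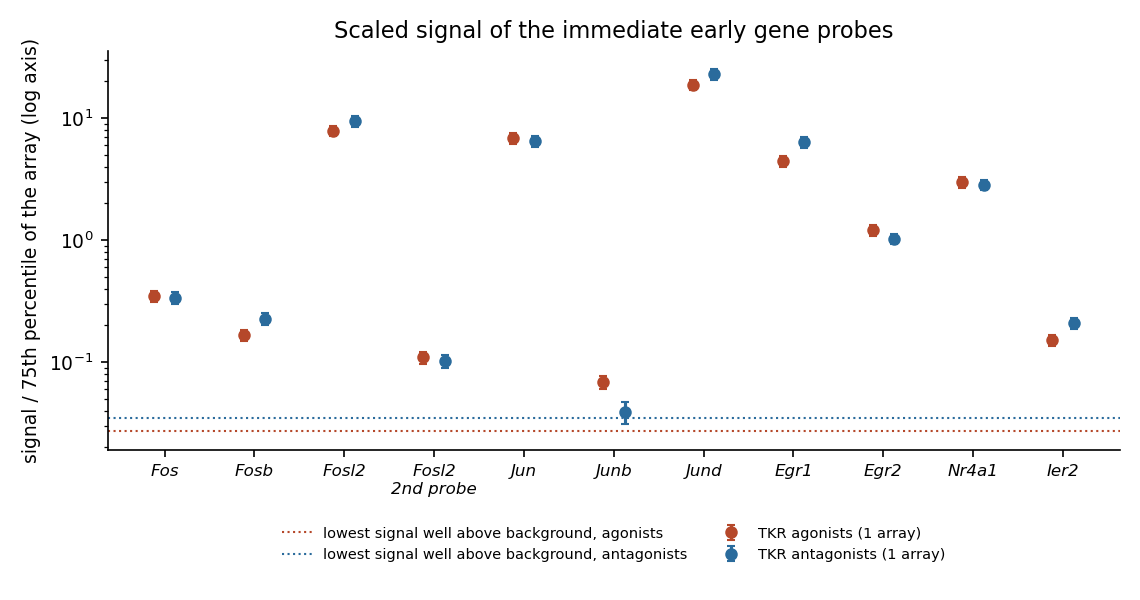
Signal of each probe of the 10 genes divided by the 75th percentile of its array (log axis), for the 1 TKR agonist array and the 1 TKR antagonist array; error bars are the software's error estimates and dotted lines the lowest signal well above background on each array. The pairs of points lie close together for every probe except that of Junb, whose antagonist value of 22.3 signal units lies just over its line. Different probes are not comparable in level.

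Fos, the subunit that gives AP-1 its strongest binding when paired with Jun, was the gene measured with the most spots. Its probe (NM_010234) was printed at 10 spots, of which 10 of 10 were well above background on both arrays. The agonist spots read between 207 and 265 signal units with a median of 234 and a mean of 234 ± 17.1 (SD over 10 spots). The antagonist spots read between 175 and 226 with a median of 192, and the 8 spots that the software had not marked as outliers had a mean of 191 ± 11.1 (SD over 8 spots). Before scaling, the agonist spot was the brighter at 9 of the 10 shared spot numbers, and 7 agonist spots were brighter than every antagonist spot. After division by the 75th percentile the arrays overlapped, with 2 agonist spots above every antagonist spot that was kept, and 0 above the brightest spot marked as an outlier. The log2 ratio of Fos was 0.05 ± 0.21, and the ratios of single spots ran from -0.09 to 0.36 over the 8 spots kept on both arrays, and from -0.26 to 0.36 with 5 of 10 above 0 over all spots. Unscaled, the ratio was 0.29, beside a difference of 0.24 between the 75th percentiles of the arrays on the log2 scale.

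**Figure D2:**
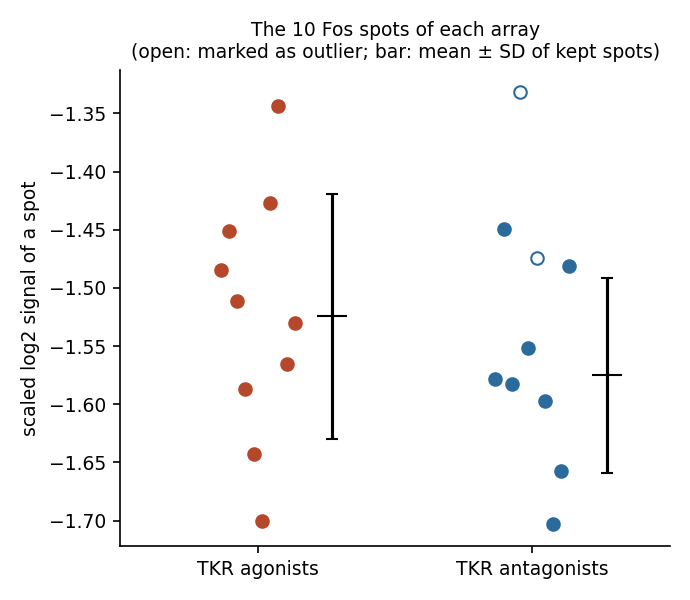
Scaled log2 signal of each of the 10 Fos spots on the TKR agonist and TKR antagonist arrays; open circles are the 2 antagonist spots marked as outliers, and bars give the mean ± SD of the kept spots. The spots of the arrays overlap over nearly their whole range.

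Fosb and the brighter probe of Fosl2 gave lower log2 ratios than Fos, and the dimmer probe of Fosl2 a higher one. Fosb, which like Fos carries a transactivation domain and has a truncated long-lived form, read 112 ± 12 signal units with the agonists and 129 ± 13.7 with the antagonists (NM_008036), which is a log2 ratio of -0.45 ± 0.22. That is 1.62 errors below the median of all probes. Fosl2 (Fra-2), which lacks the strong transactivation domain of Fos, was measured by a pair of probes for NM_008037. The brighter one read 5290 and 5327, a log2 ratio of -0.25 ± 0.20, and the dimmer one read 73.4 and 58.1, a ratio of 0.10 ± 0.25. The probes fell on either side of 0 and differed by 0.35 with an error of 0.32. Within the family, the ratio of Fos was 0.50 ± 0.30 above that of Fosb and 0.30 ± 0.29 above that of Fosl2. Neither distance was over 2 errors, where the error of Fos is that of 1 spot and was not reduced for its 10 spots.

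Junb showed the largest difference of the 10 genes, and it rested on a signal close to background. Junb, an AP-1 subunit that is itself rapidly induced and often opposes Jun, read 46.1 ± 5.86 signal units with the agonists and 22.3 ± 4.61 with the antagonists (NM_008416), 1 spot on each array. The log2 ratio was 0.81 ± 0.35, or 1.75-fold, and 2.58 errors above the median of all probes. The antagonist signal was 1.12 times the lowest signal counted as well above background on that array, and the agonist signal 2.54 times. With the normexp background correction, a model of signal and background that compresses dim values, the Junb ratio was 0.04. Without Junb, the other 9 genes had a median of -0.25 and none was above 0.23.

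Jun and Jund were measured by bright probes and lay within 1 software error of the median of all probes. Jun, the strongest transactivator of its family, read 4576 ± 458 with the agonists and 3684 ± 368 with the antagonists (NM_010591), which is a log2 ratio of 0.07 ± 0.20. Jund, the member that most cells express steadily rather than on stimulation, read 12640 ± 1264 and 13067 ± 1307 (NM_010592), a ratio of -0.29 ± 0.20. These lay 0.83 errors above and 0.94 errors below the median of all probes. Junb stood above Jund by 1.1 ± 0.41, or 2.70 errors, and above Jun by 0.74 ± 0.41. Jun stood above Jund by 0.36 ± 0.29.

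The Egr pair pointed in opposite directions. Egr1, a zinc finger activator that gonadotropins and growth factors induce, read 2970 ± 297 signal units with the agonists and 3598 ± 360 with the antagonists (NM_007913). Its log2 ratio of -0.52 ± 0.20, 1.43-fold lower with the agonists, was the lowest of the 10 genes and 2.06 errors below the median of all probes. Egr2 (Krox20) read 810 ± 81.1 and 583 ± 58.5 (NM_010118), a ratio of 0.23 ± 0.20, which is 1.61 errors above that median. The difference between the ratios, Egr2 over Egr1, was 0.75 ± 0.29, or 2.60 errors. Of the 7 pairs compared within families, this one and Junb with Jund were the 2 that differed by over 2 errors, with single-spot errors throughout. A difference between genes on the same arrays does not depend on the constant used to scale them. With normexp, however, Junb stood above Jund by 0.31, while Egr2 stood above Egr1 by 0.71.

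Nr4a1 and Ier2 complete the list. Nr4a1 read 1992 ± 199 signal units with the agonists and 1610 ± 161 with the antagonists (NM_010444), which is a log2 ratio of 0.06 ± 0.20 and 0.79 errors above the median of all probes. Ier2, a nuclear protein induced alongside Fos and Jun by growth factors, read 101 ± 11.1 and 118 ± 12.7 (NM_010499), a ratio of -0.46 ± 0.22 and 1.64 errors below it. The genes with TGACG in a window (Egr2, Fos, Fosb, Junb and Nr4a1) had ratios from -0.45 to 0.81, the latter that of Junb, close to background. Those with a window but no TGACG (Fosl2, Jun and Jund) had ratios from -0.29 to 0.07. Egr1 and Ier2 had no window, and a link between the element and the ratio was not tested.

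**Figure D3:**
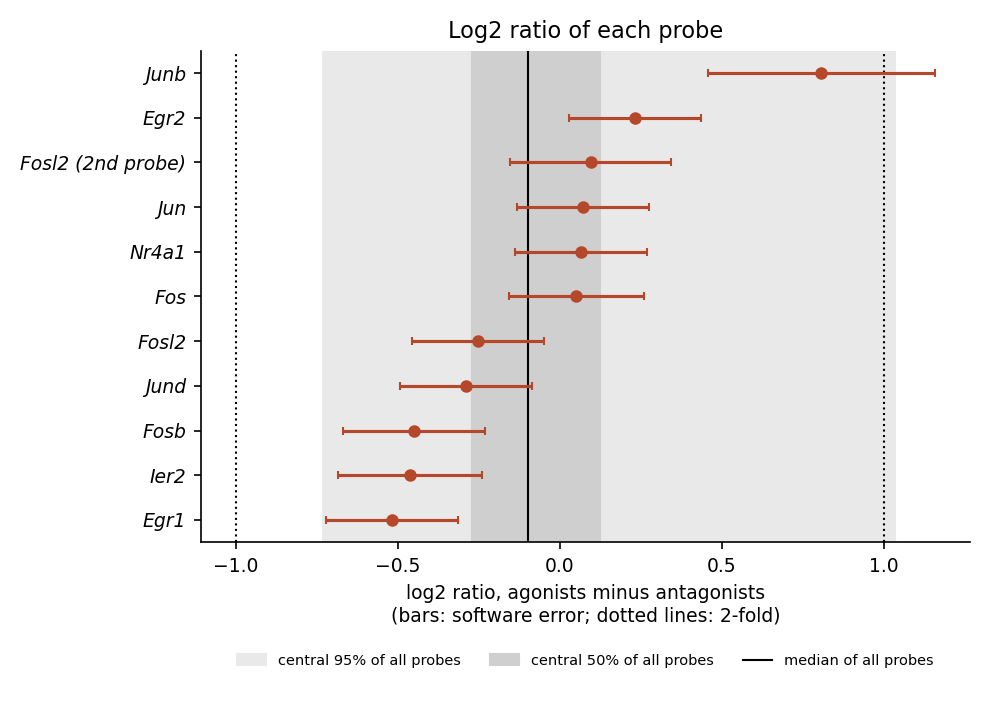
Log2 ratio (agonists minus antagonists) of each of the 11 probes, in order, with the software's error as bars; the shaded bands hold the central 50% and 95% of the 33073 probes detected on both arrays, the solid line is their median and dotted lines mark 2-fold. All points lie inside the dotted lines, and the ratios run from -0.52 for Egr1 to 0.81 for Junb.

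**Figure D4:**
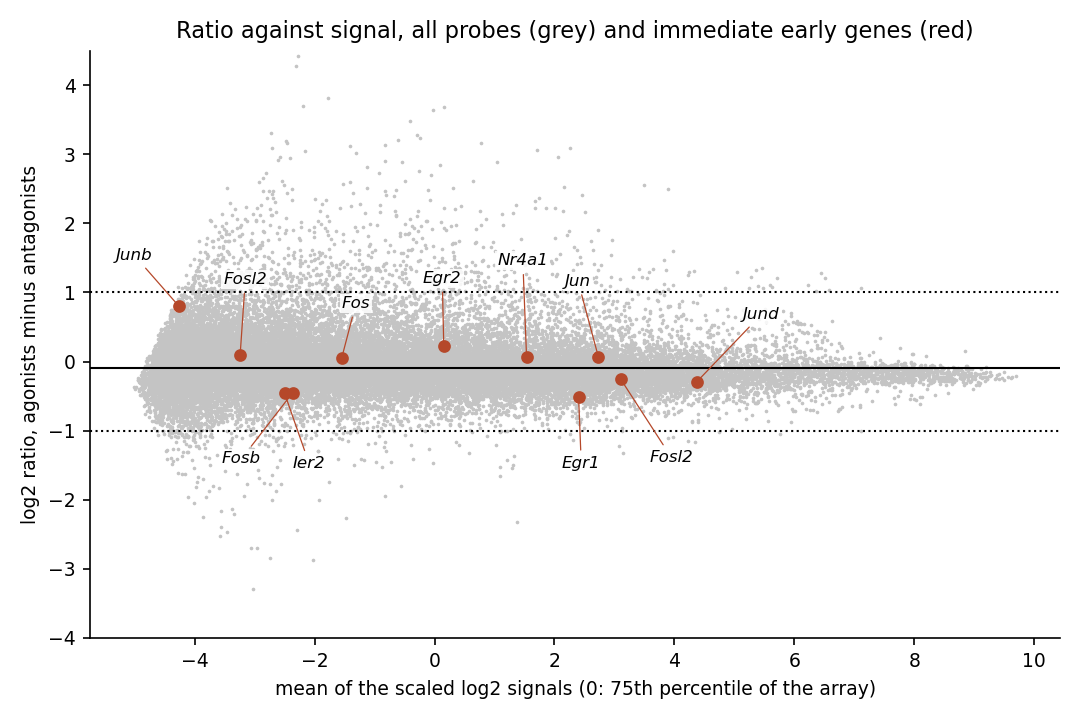
Log2 ratio (agonists minus antagonists) against the mean scaled log2 signal for the 33073 probes detected on both arrays (grey) and the 11 probes of the 10 genes (red); dotted lines mark 2-fold and the solid line the median of all probes. Junb lies at the dim edge of the cloud and the other probes lie in its body.

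The partners and relatives with which these proteins act covered log2 ratios from -0.67 to 0.99. Of 13 AP-1 partners of the Batf, Atf, Jdp and Maf families, 12 were matched and 11 were detected on both arrays, with a median log2 ratio of 0.16 and 7 above 0. Batf, which pairs with Jun proteins in immune cells, read 198 signal units with the agonists and 84.6 with the antagonists over 10 spots, a ratio of 0.99. Batf2 (165 and 95.3) gave 0.55 and the small Maf protein Maff (875 and 520) gave 0.51. At the other end, the stress-induced repressor Atf3 (244 and 329) gave -0.67, the Jun dimerisation partner Jdp2 (922 and 1112) gave -0.51 and Mafk gave -0.13. Of these 11 genes, 0 were past 2-fold in either direction, and 1 was past 1.5-fold in each direction (Batf and Atf3), against 2.69% and 0.705% of all probes at 2-fold and 6.95% and 4.9% at 1.5-fold. Fosl1 (Fra-1), the remaining Fos relative, was well above background with the antagonists alone (21.9 against 33.7, 1 spot each), which makes it at least 1.82-fold lower with the agonists. In such a bound the lowest signal well above background on the dim array, or the dim signal itself where that is higher, stands in for the dim value.

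The closest relatives of Egr1, Egr2 and Nr4a1 were in part beyond the reach of the arrays. Egr3 (4.92 and 4.15 signal units), Egr4 (4.45 and 7.55) and Nr4a3 (4.12 and 4.34) were not well above background on either array, so no fold is given. Nr4a2 (Nurr1) read 167 with the agonists and 225 with the antagonists, for a log2 ratio of -0.67, and its other probe gave -0.78. Nab2, a corepressor that binds Egr proteins and is itself an Egr target, read 4039 and 5096, a ratio of -0.58, while its paralogue Nab1 (836 and 674) gave 0.07. Nr4a2, Nab2 and Egr1 were thus all lower with the agonists, and Nab1, Egr2 and Nr4a1 were above the median of all probes.

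Immediate early genes outside these families had a higher median ratio than the 10 genes, a difference that was not tested. All 41 listed were detected on both arrays, with a median log2 ratio of 0.29 and 29 of 41 above 0. Past 2-fold, 2 were higher and 0 lower with the agonists, against 2.69% and 0.705% of all probes. Those at least 1.5-fold higher numbered 9, and 0 were 1.5-fold lower, against 6.95% and 4.9%. Ccn2 (connective tissue growth factor) read 5100 signal units with the agonists and 834 with the antagonists, which gives 2.37 or 5.17-fold. Cebpd, a C/EBP transcription factor of the acute phase response, read 11407 and 3793, a ratio of 1.35 or 2.54-fold. Dusp2, a nuclear phosphatase that inactivates MAP kinases, read 966 and 481, a ratio of 0.76. The lowest ratios were those of Ier5 (-0.44), a relative of Ier2, of Rgs2 (-0.35), which limits Gq signalling, and of Arc (-0.35), an effector of synaptic activity. Of the other MAP kinase phosphatases, chosen here after their values were seen, Dusp4 gave 0.72, Dusp6 0.60, Dusp1 0.36 and Dusp5 -0.18.

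**Figure D5:**
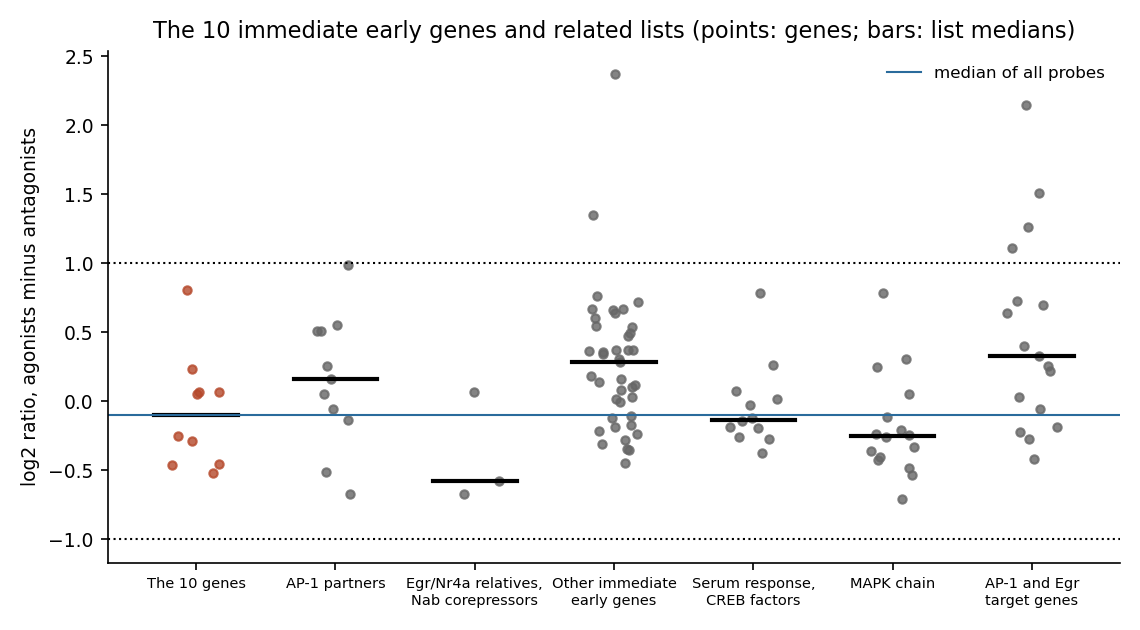
Log2 ratio (agonists minus antagonists) of each gene detected on both arrays, for the 10 genes (red) and the 6 related lists (grey); black bars are list medians, the blue line the median of all probes and dotted lines 2-fold. The median of the 10 genes lies on the line, and the points past 2-fold lie among the other immediate early genes and the target genes.

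Upstream of the 10 genes, the transcription factors that drive them centred near the median of all probes, and the kinases lay mostly below it. The 12 serum response and CREB factors, all detected on both arrays, had a median log2 ratio of -0.13, with 4 above 0. Past 2-fold, 0 were higher and 0 lower, against 2.69% and 0.705% of all probes. At 1.5-fold, 1 was higher and 0 were lower, against 6.95% and 4.9%. The median of these factors lay 0.03 below that of all probes and on the other side of it in 3 of the 11 alternatives. Srf itself, the factor that binds the CArG box, gave -0.14. Elk3, a partner of Srf that represses in the absence of stimulation, read 4919 and 2417 signal units, a ratio of 0.78, while its other probes gave 0.05 to 0.40. Crem gave 0.27 and Mrtfb 0.08, and the lowest were the CREB coactivator Crtc3 (-0.38), Elk4 (-0.27) and Elk1 (-0.26). The Elk1 probe was very bright, at 418207 and 422298 signal units, and the other Elk1 probe gave -0.01.

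The 16 genes of the MAP kinase chain had a median of -0.25, with 4 above 0. Past 2-fold, 0 were higher and 0 lower, against 2.69% and 0.705% of all probes. At 1.5-fold, 1 was higher and 1 lower, against 6.95% and 4.9%. Read against the median of all probes, the list differed by -0.16, and 4 of the 16 lay above it. Highest was Rps6ka1, a kinase that ERK activates and that phosphorylates Fos and CREB (5528 and 2710 signal units, ratio 0.79). Mapk3 (ERK1) read 8435 and 5758, a ratio of 0.31 with 0.36 at its other probe, and Rps6ka3 gave 0.25. Lowest was Rps6ka2, at 20.4 and 28.2 signal units a dim probe, with a ratio of -0.71. Map2k1 (MEK1) read 3801 and 4654, a ratio of -0.53, and Mapk9 (JNK2), a kinase of Jun, gave -0.49 with -0.03 at its other probe. Most of these proteins act through phosphorylation, which RNA levels do not measure.

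Downstream, textbook targets of AP-1 and Egr proteins also had a median above that of the 10 genes, again with no test. Of 21 target genes, 17 were detected on both arrays, with a median log2 ratio of 0.33 and 12 of 17 above 0. Of these 17 genes, 4 had values 2-fold higher or more with the agonists and 0 had values 2-fold lower, against 2.69% and 0.705% of all probes. At 1.5-fold the numbers were 7 and 0, against 6.95% and 4.9%. Spp1 (osteopontin) read 635 signal units with the agonists and 121 with the antagonists, which gives 2.14 or 4.42-fold. Plau, the urokinase plasminogen activator, read 1224 and 432 (1.26, 2.40-fold). The urokinase receptor Plaur, named after its value was seen, read 987 and 387 (1.11). The lowest ratios were those of the cytokine Lif (-0.42), the growth factor Hbegf (-0.27) and the collagenase Mmp13 (-0.22). Ptgs2 (COX-2), the inducible prostaglandin synthase, was above background on the agonist array alone and was at least 1.58-fold higher there. Mmp3 (stromelysin), likewise above background with the agonists alone (28.6 against 4.44, 1 spot each), was at least 1.22-fold higher. Mmp9 and Il6 were not well above background on either array.

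Marker genes of cells outside the follicle were also higher on the agonist array, and they belong beside the lists of other immediate early genes and targets. Of 25 markers of macrophages, endothelium, smooth muscle, surface epithelium and stroma, 22 were detected on both arrays, 20 of 22 had ratios above 0 and 5 were at least 2-fold higher (2.69% of all probes), with list medians from 0.45 to 1.09. Their summed signal, in units of the 75th percentile of each array, was 10.9 (agonists) and 8.64 (antagonists) for macrophages, 34.4 and 16.1 for surface epithelium, 37.9 and 23.2 for smooth muscle, 59.7 and 53.7 for endothelium, and 257 and 210 for stroma. Among the markers outside the follicle, Kdr (-0.27, with 0.38 at its other probe) and Lum (-0.30) were below 0. The macrophage marker Csf1r gave 0.15, with -0.09 to 0.04 at its other probes. Granulosa cell, theca and oocyte markers, which define the ovary, were present. Of these 14 markers, 12 were detected on both arrays and 4 of 12 were above 0. Past 2-fold, 1 was lower with the agonists (Inhbb, 2.24-fold) and 0 were higher, against 0.705% and 2.69% of all probes. The theca marker Lhcgr was not well above background on either array. The granulosa cell markers had a median of -0.68 with 1 of 5 above 0 (Foxl2, 0.32, whose other probe gave -0.37), and a summed signal of 95.1 with the agonists against 136 with the antagonists. The summed signal of theca markers was 23.4 against 31.0, and that of oocyte markers 196 against 204, a sum that Gdf9 dominates. Gene by gene, the oocyte markers had a median ratio of 0.17, with 3 of 5 above 0 and 4 of 5 above the median of all probes. The part of these cell types in the ratios of the 10 genes and of the related lists was not tested.

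Of the 11 alternative ways of processing the arrays, 6 cannot move the 10 genes against each other, since they change a constant of each array or a filter that all 10 genes pass. In the other 5, the median of the 10 genes minus the median of all probes lay between -0.02 and 0.08. Keeping outlier spots and taking the median over spots changed the ratio of Fos alone. Averaging over probes changed that of Fosl2 alone. Of the 5, only normexp and quantile normalization changed the ratios of Junb and Egr1. With normexp, Jun was highest with 0.19 and Egr1 lowest. With quantile normalization, Junb was highest and Ier2 lowest with -0.50. The ratio of Fos was the only one of the 10 to change sign, in 2 of the 11 alternatives and each time to -0.01. The ratio of Egr1 ran from -0.57 to -0.27 and that of Junb from 0.04 to 1.05.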

How the data were processed

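The authors had the RNA labelled with Cy3 and hybridised to SurePrint G3 Mouse GE 8 x 60K arrays. They deposited the intensity of each spot, read with Agilent Feature Extraction 10.10.1.1 and background-corrected but not scaled between arrays, and a table of intensities that is this signal multiplied by 1.99 (agonists) or 2.19 (antagonists), to within a relative deviation of 4.97e-10. The array was designed on build mm9; RefSeq names and start sites are from GRCm38.p6, and no coordinates of probes are given.

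From these files, control spots and spots marked as outliers were left out, log2 of the processed signal was reduced by each array's 75th percentile over non-control spots, and repeated spots were averaged. Of the resulting 55674 probes, 27230 were named through RefSeq accessions. Well above background were 65.4% (agonists) and 61.6% (antagonists) of spots, and 0 were saturated. A gene or probe is called detected where over 50% of its spots were. A gene was represented by its brightest probe well above background on both arrays. Named were all 10 genes, the 3 highest and 3 lowest of each related list, lists of up to 6 genes in full, genes of these lists with a bound, and Ptgs2; an item of the target list that this rule names is not reported here. Dusp1, Dusp4, Dusp5, Dusp6, Plaur, Srf, Mmp9, Il6 and the marker genes were named after their values were seen. The genes and lists were chosen with earlier results of these data known. No p-value was computed. The calculation was tested on simulated data. Alternatives were other scalings, the authors' table, normexp (offset 50, limma 3.58.1, R 4.3.3), outlier spots kept, other summaries of spots and probes, no filter on dim probes and a 1.5-fold threshold. Python 3.11.15, numpy 2.4.6, pandas 2.3.3 and matplotlib 3.10.9 were used. Columns of the tables left unused for want of a sample numbered 0.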

Additional observations from a re-analysis of the deposited data

How the results depend on the processing

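No paired analysis was possible because the groups have only 1 array each and nothing was tested; for the same reason no array could be left out. Among all probes, those at least 2-fold higher and lower with the agonists numbered 890 and 233 as reported, 1499 and 98 without scaling, 1511 and 96 when scaled on the spike-in probes, 410 and 60 after normexp, and 3339 and 2333 with no filter on dim probes. The authors' table gave 149 lower, and a 1.5-fold threshold 2299 higher and 1620 lower. The share of higher among these calls was 79.3% as reported, 93.9% without scaling, 94.0% with spike-in scaling and 58.9% with no filter. The median of the 10 genes was 0.14 without scaling and 0.15 with spike-in scaling, where the median of all probes was 0.14 and 0.15. Junb made the count of genes 2-fold higher 1 without scaling, 1 with spike-in scaling and 1 at 1.5-fold. Of the 110 values of single genes under the alternatives, 91 moved by less than the gene's software error and 19 by more. The Junb ratio rests on a single spot per array, close to background with the antagonists.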
